A study of Drosophila melanogaster with 16 samples.

Results

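The effect of 7 days on a sugar diet was measured in the Gr5a fraction of Drosophila heads, in 2 sugar diet libraries (SD7) and 3 control diet libraries (CD7), 5 of the 16 libraries of the series. The 5 were taken by their labels (fraction, diet and days), and no measured value was used to choose them. All flies were adult males of the genotype Gr5a>UAS-Rpl3-3XFLAG, in which the Gr5a-GAL4 driver puts a FLAG tag on the ribosomal protein RpL3. They were gathered 2 days after eclosion, moved to their diet on day 5 and sampled on day 12. The control diet held 5% sucrose and the sugar diet 30% sucrose. Each replicate was a pool of 300 heads that had been separated from frozen bodies by sieving. Tagged ribosomes were pulled down with an anti-FLAG antibody, and total RNA of the same lysate was sequenced as input (3 CD7 and 2 SD7 libraries). The driver defines the cells only as well as the GAL4 line does, the pools hide differences between flies, and no group without the tag was analysed here.

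Gr5a encodes a receptor subunit for sweet compounds, and the cells that express it are the sweet sensing gustatory neurons of the labellum and legs. Their axons run to the brain, where activity promotes feeding. Translating mRNA affinity purification recovers mRNA on tagged ribosomes, but untagged RNA that stays on the beads can be sequenced as well. In flies, dietary sugar is known to act through the Mondo/Mlx sugar sensing factors, which control glycolytic, lipogenic and digestive genes in fat body and gut, and through the secreted signal Dawdle.

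Gene counts on the transcript strand ranged from 37460422 to 49117482 over the 5 libraries. Levels are given as CPM (gene counts scaled to a fixed library total) after TMM scaling. The 5 markers of sweet neurons summed to between 12.0 and 19.2 CPM in the Gr5a fraction of both diets and to between 1.26 and 2.06 CPM in the input. Even in the Gr5a fraction the receptor gene itself was rare, with 101 to 140 counts of Gr5a in a library. Transcripts of other tissues were abundant. The 5 photoreceptor markers summed to 10090.0 to 16240.0 CPM in the Gr5a fraction. The 8 midgut markers, which include the digestive enzymes Mal-A1, Jon65Aiii and Jon99Ciii, summed to 3650.0, 2032 and 2193 CPM in CD7 replicates 1 to 3 and to 1692 and 902 CPM in SD7 replicates 1 and 2. In the input of the same lysates that sum was lower than in the Gr5a fraction, at 836, 622 and 603 CPM for CD7 and 130.3 and 400 CPM for SD7. The 5 fat body markers summed to 6071, 7881 and 4987 CPM (CD7) and 5753 and 3482 CPM (SD7), and 2 of them (fit and Lsp1gamma) were at 0 in at least 1 library. Both SD7 libraries thus lay below CD7 for the sum of the midgut markers, and SD7 replicate 2 had the lowest sum for midgut and fat body. Of the midgut markers, Mal-A1, Jon65Aiii and Jon99Ciii also lay below CD7 singly. The groups overlapped for alphaTry, betaTry, LysP, Npc1b and mag, and LysP had a log2 fold change of -0.01. The part that RNA of these tissues plays in the results was not tested. In RNA from mixed tissue, fewer cells of a type and less RNA per cell cannot be told apart.

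The study called genes with DESeq2 at an adjusted p under 0.1. It reported far more genes after 7 days than were called here, most of them lower. At that threshold, but with another test, edgeR quasi-likelihood, 0 of 13758 genes (0.0%) were called between SD7 and CD7, and the smallest adjusted p was 0.274. At an unadjusted p under 0.05 the edgeR test picked 772 genes (5.61%), of which 432 (3.14%) were lower and 340 (2.47%) higher in SD7. DESeq2, run here at an adjusted p under 0.1, called 57 of 13486 genes (0.423%), with 50 lower (0.371%) and 7 higher (0.0519%). Both SD7 libraries lay below all 3 CD7 libraries at 1083 genes (7.87%) and above them at 1390 genes (10.1%). The log2 fold change was below 0 at 5905 genes (42.9%). These shares are the background against which the gene classes below are read, and no class was tested as a set. The 95% interval of the log2 fold change stayed within 1.5-fold in either direction at 5110 genes (37.1%) and within 2-fold at 7956 genes (57.8%), so for the other genes a change of 2-fold was not excluded. Single genes are given with the SE and 95% interval of the log2 fold change in the edgeR fit over the 11 Gr5a libraries, which pool the estimate of spread. Besides the 5 libraries compared, that fit holds flies after 3 days of sugar diet, 14 days of control diet, and sugar followed by control diet. The flies of the 14-day groups were older, collected on day 19. Counts of genes at p under 0.05 use the unadjusted p-value of that fit, and its adjusted p was 0.274 or more for every gene. Values in CPM follow the order of the replicate numbers, 3 for CD7 and 2 for SD7.

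**Figure D1:**
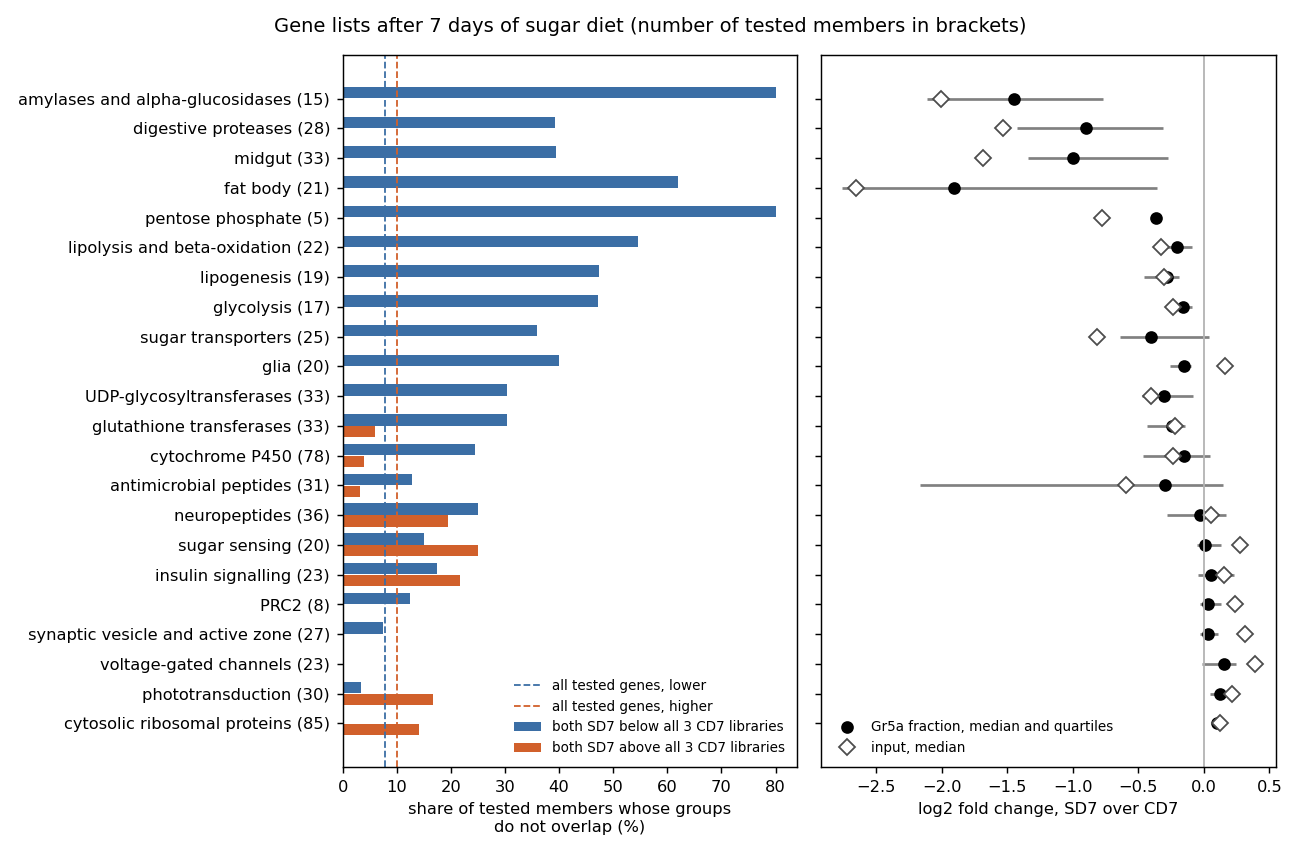
Gene classes in SD7 against CD7. One panel gives, for each class, the share of tested members whose 2 SD7 libraries lay below or above all 3 CD7 libraries, with lines at the shares over all genes (7.87% and 10.1%), and the other gives the median log2 fold change with quartiles for the Gr5a fraction and the median for the input. Of the classes plotted, fat body, amylase, midgut and protease genes have the lowest medians in both fractions.

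Genes for the digestion of starch and disaccharides were lower on the sugar diet. Of 15 tested amylases and alpha-glucosidases, enzymes that cut starch and sucrose into glucose, 11 were lower at p under 0.05 and none higher, and 12 (80.0%, against 7.87% of all genes) had both SD7 libraries below all CD7 libraries. Their median log2 fold change was -1.45, against 0.04 over all genes. Summed over the class, the level was 6530.0, 4037 and 3329 CPM in CD7 and 2734 and 1457 CPM in SD7, a ratio of means of 2.21-fold. The count depended on single libraries. Without SD7 replicate 2 the median was -0.84 with 3 members at p under 0.05, and without CD7 replicate 1 it was -1.09 with 8. DESeq2 called 3 members, all lower.

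Amy-p (FBgn0000079) and Amy-d (FBgn0000078), neighbouring genes for alpha-amylase, had the largest differences among the abundant members. Amy-p stood at 722, 314 and 253 CPM in CD7 and at 92.4 and 49.4 CPM in SD7. The groups did not overlap, and the level was 6.06-fold lower in SD7 (log2 fold change -2.60, SE 0.51, 95% interval -3.73 to -1.46, edgeR adjusted p = 0.699, DESeq2 adjusted p = 0.00835). Amy-d stood at 492, 231 and 191 CPM in CD7 and at 79.7 and 43.7 CPM in SD7, 4.95-fold lower (log2 fold change -2.31, SE 0.45, 95% interval -3.30 to -1.31, DESeq2 adjusted p = 2.05e-05). Both genes were highest in CD7 replicate 1 and lowest in SD7 replicate 2. The copies are nearly identical and only uniquely mapped reads were counted, so the split between them is uncertain. The alpha-glucosidase Mal-A1, the most abundant member, stood at 1614, 1036 and 750.1 CPM in CD7 and at 692 and 220.2 CPM in SD7 (log2 fold change -1.31, SE 0.49, 95% interval -2.40 to -0.22). Here SD7 replicate 1 came close to the lowest CD7 library. Mal-A6 stood at 716, 399 and 323 CPM in CD7 and at 238 and 86.4 CPM in SD7 (log2 fold change -1.56, SE 0.50, 95% interval -2.67 to -0.46).

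The target of brain insulin tobi (3R:25344761-25346921, BDGP6), an alpha-glucosidase gene whose expression in fly fat body and gut is known to respond to insulin-producing cells and to diet, stood at 760.2, 463 and 326 CPM in CD7 and at 278 and 93.0 CPM in SD7. The difference was -1.48 on the log2 scale (SE 0.47, 95% interval -2.52 to -0.44, DESeq2 adjusted p = 0.0981). In the input of the same lysates it was -2.48 (SE 0.54).

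Digestive proteases were lower as well. Of 28 tested members, mostly trypsins and chymotrypsin-like enzymes of the gut, 11 were lower at p under 0.05 and none higher, and 11 (39.3%, against 7.87%) lay below CD7 in both SD7 libraries. The median log2 fold change was -0.90. It was -0.45 with 5 members at p under 0.05 without SD7 replicate 2, -1.68 with 20 without SD7 replicate 1, and -0.70 with 8 without CD7 replicate 1. Jon99Ciii (FBgn0003357, 3R:29922216-29923455), a Jonah family serine protease, had the smallest p of all genes tested. It stood at 121, 88.5 and 65.4 CPM in CD7 and at 24.97 and 15.6 CPM in SD7, with no overlap and a level 4.52-fold lower (log2 fold change -2.18, SE 0.29, 95% interval -2.82 to -1.53, edgeR adjusted p = 0.274, DESeq2 adjusted p = 5.44e-10). Its relatives Jon99Ci (log2 fold change -2.32, SE 0.39, 95% interval -3.19 to -1.44) and Jon99Cii (-2.21, SE 0.40, 95% interval -3.10 to -1.33) behaved alike, but the 3 share sequence and their counts are uncertain for that reason. More abundant members differed less. Jon65Aiv stood at 773, 393 and 400 CPM in CD7 and at 313 and 115.4 CPM in SD7 (log2 fold change -1.28, SE 0.54, 95% interval -2.50 to -0.07), and betaTry, a trypsin, had overlapping groups (429, 221 and 356 CPM against 246 and 104 CPM, log2 fold change -0.94, 95% interval -2.07 to 0.19).

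The list of midgut genes held 33 tested members, 18 of them also in the amylase and protease lists. All 33 had a log2 fold change below 0, with a median of -0.9998. At p under 0.05, 14 were lower, and 13 (39.4%, against 7.87%) did not overlap. Without SD7 replicate 2 the median was -0.46 with 6 members at p under 0.05, without SD7 replicate 1 it was -2.04 with 23, and without CD7 replicate 1 it was -0.77 with 7. The 2 SD7 libraries differed from each other by a median of -1.41 (log2, replicate 2 over replicate 1) at these genes, against -0.08 over all genes. The spread between replicates of 1 diet was thus as large as the difference between diets. In the input the median was -1.69, and there SD7 replicate 1, not replicate 2, was the lowest library (325 CPM summed, against 890 CPM in replicate 2 and 1489 to 2049 CPM in CD7).

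**Figure D2:**
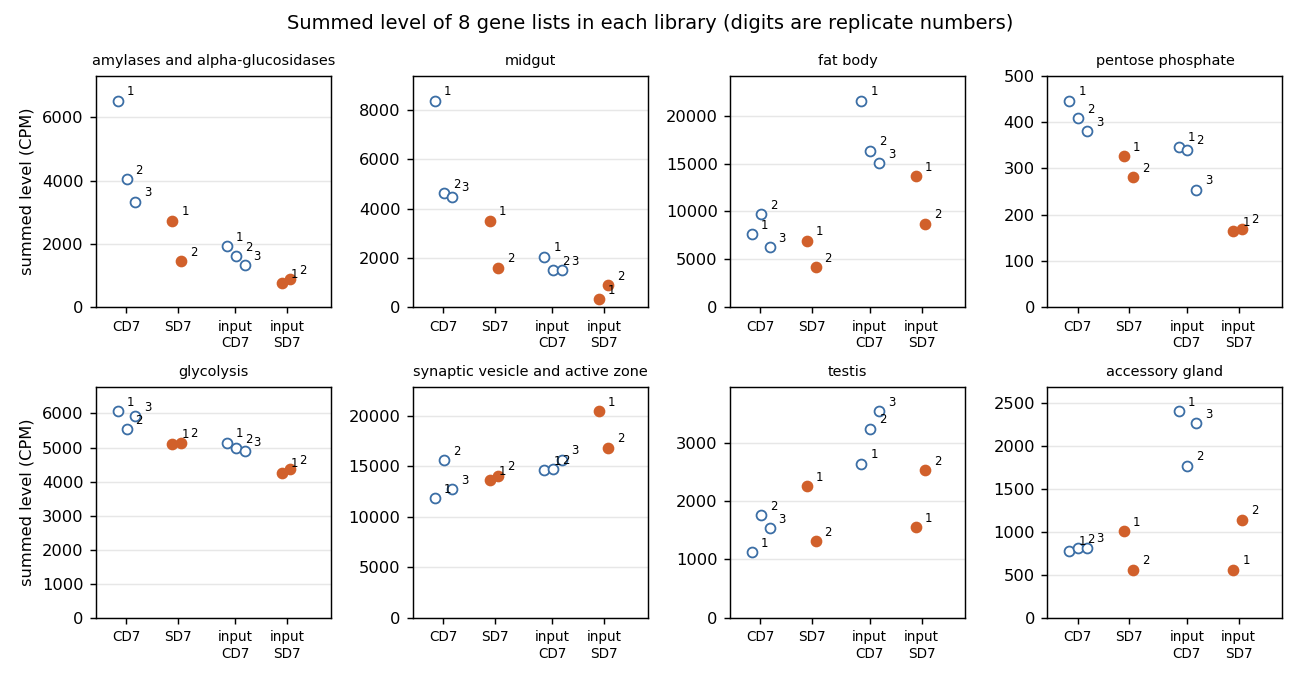
Summed CPM of 8 gene classes in each library (y axis, linear from 0), for the Gr5a fraction and the input of day 7, with open points for the control diet, filled points for the sugar diet and digits for the replicate number. Amylases and midgut genes were lowest in SD7 replicate 2 of the Gr5a fraction (1457 and 1594 CPM) and in SD7 replicate 1 of the input, while glycolysis varied little.

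Genes of the fat body, the fly tissue that stores fat and secretes storage, yolk and lipid carrier proteins, gave the largest median of the metabolic classes. Of 21 tested, 9 were lower at p under 0.05 and none higher, 13 (61.9%, against 7.87%) did not overlap, and the median log2 fold change was -1.91. Without SD7 replicate 2 it was -1.32 with 4 members at p under 0.05, without SD7 replicate 1 it was -2.74 with 13, and without CD7 replicate 1 it was -1.71 with 6. The class was not lower as a sum in SD7 replicate 1. It summed to 7633, 9725 and 6268 CPM in CD7 and to 6940.0 and 4137 CPM in SD7, with apolpp, the lipophorin precursor that carries lipids in the blood, making up 76.6% of it. For apolpp alone the groups overlapped (5557, 7317 and 4578 CPM against 5671 and 3471 CPM, log2 fold change -0.35, SE 0.38, 95% interval -1.20 to 0.50).

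Lsp2 (FBgn0002565, 3L:12129393-12131869), a larval serum protein of the amino acid storing hexamerin family, stood at 242, 378 and 124 CPM in CD7 and at 4.88 and 0.788 CPM in SD7. Both SD7 libraries were far below all CD7 libraries, with a log2 fold change of -6.45 (SE 1.92, 95% interval -10.74 to -2.16, DESeq2 adjusted p = 0.0237). Its relative Lsp1beta also had both SD7 libraries below CD7, with 234, 401 and 181 CPM in CD7 and 136 and 9.75 CPM in SD7, but with a wide spread between them (log2 fold change -1.91, SE 1.20, 95% interval -4.59 to 0.77). The yolk protein gene Yp3 (X:13759546-13761547) stood at 179, 109 and 165 CPM in CD7 and at 61.2 and 22.3 CPM in SD7, 3.61-fold lower (log2 fold change -1.85, SE 0.38, 95% interval -2.69 to -1.01, DESeq2 adjusted p = 0.000427). Yp2 stood at 89.5, 65.2 and 109 CPM in CD7 and at 13.6 and 1.60 CPM in SD7 (log2 fold change -3.53, SE 0.78, 95% interval -5.27 to -1.79, DESeq2 adjusted p = 0.0700). Yolk proteins are made in quantity by females, yet all these flies were labelled male. LManIII, a lysosomal alpha-mannosidase, stood at 28.0, 36.0 and 22.5 CPM in CD7 and at 5.04 and 1.17 CPM in SD7 (log2 fold change -3.21, SE 1.08, 95% interval -5.65 to -0.78).

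**Figure D3:**
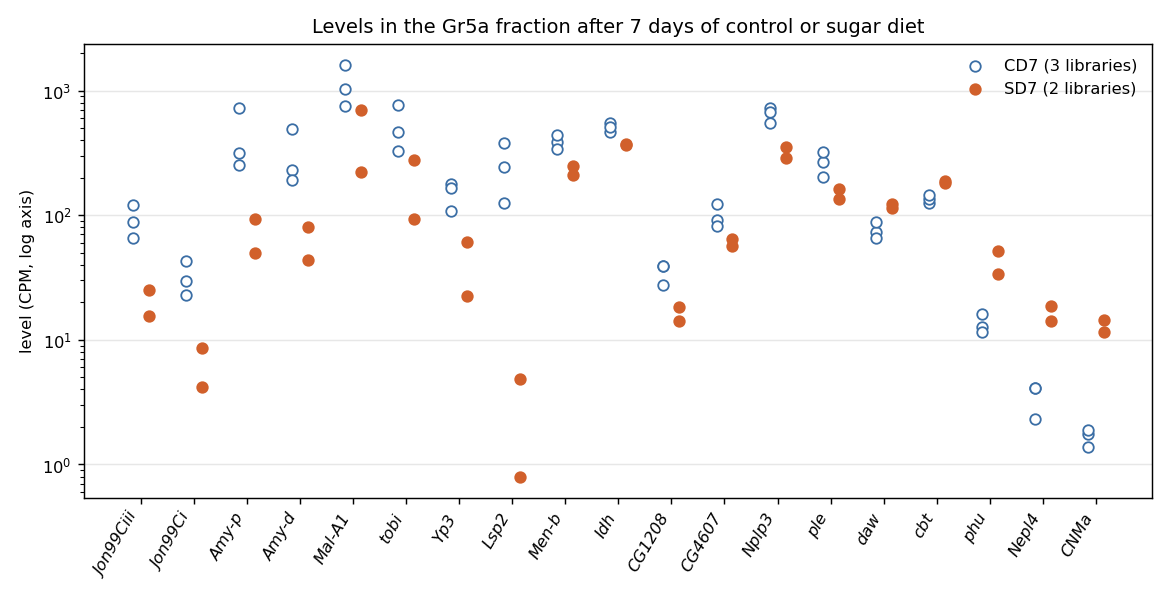
Level of 19 named genes in each of the 5 libraries (CPM, log axis), CD7 and SD7 in separate colours, with 1 point per library. For Amy-p, Jon99Ciii, Lsp2 and Yp3 both SD7 points lie under every CD7 point, and for CNMa, Nepl4 and daw both lie above.

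Some of the genes that turn sugar into fat were lower. Of 19 tested lipogenic genes, 5 were lower at p under 0.05 and none higher, 9 (47.4%, against 7.87%) did not overlap, and the median log2 fold change was -0.28. The median was -0.17 with 2 at p under 0.05 without SD7 replicate 2, and 3 were at p under 0.05 without CD7 replicate 2. Men-b (FBgn0029155, 3R:27151662-27157603), a malic enzyme, stood at 384, 437 and 339 CPM in CD7 and at 247 and 210.0 CPM in SD7. It was 1.69-fold lower with no overlap (log2 fold change -0.76, SE 0.13, 95% interval -1.05 to -0.47, edgeR adjusted p = 0.504, DESeq2 adjusted p = 0.000413), and it lay between -0.65 and -0.86 without any 1 of the 5 libraries. Idh, isocitrate dehydrogenase, a source of NADPH, stood at 544, 463 and 510.4 CPM in CD7 and at 364 and 374 CPM in SD7 (log2 fold change -0.45, SE 0.13, 95% interval -0.74 to -0.17). Acetyl-CoA carboxylase (ACC), the committed step of fatty acid synthesis, overlapped (1044, 1569 and 955 CPM against 1063 and 642 CPM, log2 fold change -0.48, 95% interval -1.22 to 0.25).

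The 5 genes of the pentose phosphate pathway, which also feeds NADPH to lipid synthesis, were all below 0 (against 42.9% of all genes). Their median log2 fold change was -0.36, and 4 (80.0%, against 7.87%) were without overlap. Their sum was 447, 408 and 381 CPM in CD7 and 326 and 281 CPM in SD7. Zw, glucose-6-phosphate dehydrogenase, stood at 82.6, 70.0 and 86.7 CPM in CD7 and at 66.1 and 60.9 CPM in SD7 (log2 fold change -0.33, SE 0.13, 95% interval -0.61 to -0.05). Taldo, transaldolase, stood at 200, 199 and 155 CPM in CD7 and at 138 and 106 CPM in SD7 (-0.60, SE 0.23, 95% interval -1.12 to -0.08). Pgd, 6-phosphogluconate dehydrogenase, did not reach p under 0.05 (-0.36, SE 0.16). Without SD7 replicate 2 or without CD7 replicate 1, 0 members were at p under 0.05, at medians of -0.27 and -0.30.

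Glycolysis shifted by little. Its 17 tested genes had a median log2 fold change of -0.16, 8 (47.1%, against 7.87%) did not overlap on the lower side and none on the higher, and none reached p under 0.05. The summed level was 6064, 5540.0 and 5913 CPM in CD7 and 5107 and 5145 CPM in SD7. For 12 of the 17 the 95% interval excluded a change of 1.5-fold. Phosphofructokinase (Pfk), the main control point, stood at 280, 269 and 274 CPM in CD7 and at 236 and 236 CPM in SD7 (log2 fold change -0.22, SE 0.11, 95% interval -0.45 to 0.02), and pyruvate kinase (PyK) at 768, 785 and 708 CPM against 673 and 606 CPM (-0.24, SE 0.12, 95% interval -0.50 to 0.03). UGP, which makes UDP-glucose for glycogen and trehalose, stood at 151, 176 and 162 CPM in CD7 and at 129.5 and 114.8 CPM in SD7 (-0.41, SE 0.14, 95% interval -0.72 to -0.11).

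Fat breakdown followed the same pattern. Of 22 tested genes of lipolysis and beta-oxidation, 4 were lower at p under 0.05, 12 (54.5%, against 7.87%) did not overlap, and the median log2 fold change was -0.20. The count was 2 without SD7 replicate 2 and 2 without CD7 replicate 1. The beta-oxidation gene yip2 stood at 109, 99.9 and 98.8 CPM in CD7 and at 75.7 and 75.1 CPM in SD7 (log2 fold change -0.44, SE 0.13, 95% interval -0.72 to -0.16). scu, which acts in the same pathway, stood at 87.2, 90.03 and 87.7 CPM against 72.1 and 74.3 CPM (-0.27, SE 0.09, 95% interval -0.47 to -0.07). Neither overlapped. The summed level of the class was 2315 to 2381 CPM in CD7 and 2140.0 and 2011 CPM in SD7. Genes that make and genes that burn fat thus lay on the same side.

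Sugar transporters, membrane carriers for glucose and trehalose, were lower at 6 of 25 tested members at p under 0.05 and higher at none, with 9 (36.0%, against 7.87%) not overlapping and a median log2 fold change of -0.41. The median was -0.13 with 2 members without SD7 replicate 2, -0.39 with 3 without CD7 replicate 1, and -0.79 with 11 without SD7 replicate 1. CG1208 (3R:5831639-5838782), a predicted sugar carrier of the major facilitator family, stood at 39.4, 38.8 and 27.4 CPM in CD7 and at 18.5 and 14.1 CPM in SD7. It was 2.16-fold lower (log2 fold change -1.11, SE 0.19, 95% interval -1.54 to -0.68, edgeR adjusted p = 0.504, DESeq2 adjusted p = 0.000383). CG4607, a carrier of the same family, stood at 122, 91.2 and 81.6 CPM in CD7 and at 64.1 and 56.4 CPM in SD7 (log2 fold change -0.71, SE 0.17, 95% interval -1.09 to -0.32, DESeq2 adjusted p = 0.0721). The trehalose transporter gene Tret1-1, the more abundant of these, overlapped between diets (521, 380 and 436 CPM against 389 and 396 CPM, log2 fold change -0.18, 95% interval -0.56 to 0.19).

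Genes of sugar sensing split. Of 20 tested, 2 were lower and 3 higher at p under 0.05, 3 (against 7.87% of all genes) did not overlap on the lower and 5 (against 10.1%) on the higher side, and the median log2 fold change was 0.01, near that of all genes. Without CD7 replicate 1 the count was 1 lower and 1 higher, and it was 1 lower without any 1 of CD7 replicate 2, SD7 replicate 1 and SD7 replicate 2. On the higher side stood daw (2L:2805261-2812376), which encodes the activin-like ligand Dawdle, with 72.7, 88.0 and 65.1 CPM in CD7 and 122 and 114 CPM in SD7. It was 1.57-fold higher (log2 fold change 0.65, SE 0.19, 95% interval 0.22 to 1.07). cabut (cbt), a transcriptional repressor known as a target of the Mondo/Mlx factors, stood at 124.5, 136 and 144 CPM in CD7 and at 180.1 and 187 CPM in SD7 (log2 fold change 0.45, SE 0.16, 95% interval 0.08 to 0.81). tobi, given above, stood on the lower side.

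Of 23 tested genes of insulin signalling 2 were lower at p under 0.05 and none higher, 4 (17.4%, against 7.87%) did not overlap on the lower side and 5 (21.7%, against 10.1%) on the higher, and the median was 0.06. None were at p under 0.05 without SD7 replicate 2, and 1 was lower without CD7 replicate 1 or without CD7 replicate 2. One was Pi3K21B, the adaptor subunit of phosphoinositide 3-kinase, at 103, 112 and 118 CPM in CD7 and 92.4 and 88.2 CPM in SD7 (log2 fold change -0.29, SE 0.11, 95% interval -0.54 to -0.05). The other, the insulin-like peptide gene Ilp5, lay at 1.37, 1.102 and 0.633 CPM against 0.517 and 0.298 CPM (-1.34, SE 0.57, 95% interval -2.62 to -0.06), levels that rest on few counts. Members were matched by symbol, so a gene ID without a symbol could be missed. FBgn0013984, such an ID, was not counted in this class and was higher at p under 0.05. Its log2 fold change lay between 0.56 and 0.70 without any 1 of the 5 libraries. Whether it belongs to the class was not checked.

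Neuropeptide genes differed in both directions. Of 36 tested, 4 were lower and 1 higher at p under 0.05, and 9 (against 7.87% of all genes) did not overlap on the lower side and 7 (19.4%, against 10.1%) on the higher. The 4 on the lower side were 0 without SD7 replicate 2 and 1 without CD7 replicate 1. CNMa (3L:1850915-1855591), a neuropeptide precursor, had the largest increase. It stood at 1.75, 1.39 and 1.90 CPM in CD7 and at 11.6 and 14.5 CPM in SD7, 7.78-fold higher (log2 fold change 2.96, SE 0.69, 95% interval 1.41 to 4.51, edgeR adjusted p = 0.786, DESeq2 adjusted p = 0.00418). Both SD7 libraries were well above every CD7 library, and the log2 fold change lay between 2.78 and 3.14 without any 1 of the 5. Nplp3 stood at 719, 552 and 670.1 CPM in CD7 and at 351 and 288 CPM in SD7 (log2 fold change -1.02, SE 0.38, 95% interval -1.87 to -0.17). Dh44, the corticotropin-releasing factor-like diuretic hormone, stood at 30.9, 31.6 and 27.4 CPM against 23.4 and 19.8 CPM (-0.47, SE 0.15, 95% interval -0.81 to -0.14). CCHa2, a peptide of gut and fat body that acts on insulin-producing cells, stood at 56.3, 75.4 and 53.9 CPM against 46.6 and 31.0 CPM (-0.67, SE 0.29, 95% interval -1.32 to -0.02).

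Neprilysin-like peptidases include enzymes that cut secreted peptides. Of 24 tested, 3 were higher at p under 0.05 and none lower, while the median was -0.08. On the higher side 3 (12.5%, against 10.1%) did not overlap, a share near the background, and the count at p under 0.05 was 1 without CD7 replicate 3 or without SD7 replicate 1. Nepl4 (2L:6367882-6370190) stood at 2.30, 4.14 and 4.07 CPM in CD7 and at 14.1 and 18.8 CPM in SD7, 4.69-fold higher (log2 fold change 2.23, SE 0.57, 95% interval 0.97 to 3.49, DESeq2 adjusted p = 0.0179). Nepl17 was higher at a much lower level (0.774, 0.694 and 0.495 CPM against 1.88 and 1.09 CPM, log2 fold change 1.18, 95% interval 0.22 to 2.13). Among the 12 genes of smallest p on the higher side were also phu (3R:9494801-9496723), at 12.7, 11.6 and 16.1 CPM against 51.5 and 33.7 CPM (3.16-fold higher, log2 fold change 1.66, 95% interval 0.91 to 2.41, DESeq2 adjusted p = 0.00163) and Odc1, ornithine decarboxylase, the first enzyme of polyamine synthesis, at 8.49, 9.94 and 9.68 CPM against 19.9 and 15.5 CPM (1.89-fold higher, log2 fold change 0.92, 95% interval 0.39 to 1.45, DESeq2 adjusted p = 0.0767). The groups did not overlap for either.

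Detoxification genes leaned to the lower side. Among 78 tested cytochrome P450 genes, oxidases that act on hormones and foreign compounds, 16 were lower and 1 higher at p under 0.05, and 19 (24.4%, against 7.87%) did not overlap on the lower side. Their median was -0.16. Without SD7 replicate 2 the count was 3 lower and 3 higher, and without CD7 replicate 1 it was 6 lower and 1 higher. Cyp6g1, known for its part in insecticide resistance, stood at 339, 258 and 314 CPM in CD7 and at 217 and 193 CPM in SD7 (log2 fold change -0.56, SE 0.14, 95% interval -0.88 to -0.24). Cyp309a1 stood at 19.1, 21.6 and 12.0 CPM in CD7 and at 8.12 and 3.896 CPM in SD7 (-1.55, SE 0.36, 95% interval -2.36 to -0.73, DESeq2 adjusted p = 0.0154). Of 33 glutathione transferases 7 were lower and 1 higher at p under 0.05, with a median of -0.24, and of 33 UDP-glycosyltransferases 5 were lower, with a median of -0.30. For both, 10 members (30.3%, against 7.87%) did not overlap on the lower side. The glutathione transferase GstE7 stood at 27.3, 18.1 and 18.8 CPM against 13.48 and 12.97 CPM (log2 fold change -0.69, 95% interval -1.16 to -0.22), and Ugt35C1 at 77.7, 57.6 and 60.5 CPM against 47.3 and 29.1 CPM (log2 fold change -0.77, 95% interval -1.23 to -0.31). These 2 counts of lower genes were 5 and 2 without SD7 replicate 2, and 3 and 4 without CD7 replicate 1.

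Some immune genes were lower. Of 31 antimicrobial peptide genes 5 were lower at p under 0.05 and none higher, and 4 (12.9%, against 7.87%) did not overlap on the lower side. Of 11 peptidoglycan recognition genes 3 were lower, and 3 (27.3%, against 7.87%) did not overlap. The counts at p under 0.05 were 2 and 0 without SD7 replicate 2, 2 and 1 without CD7 replicate 1, and 10 and 5 without CD7 replicate 3. Without CD7 replicate 2 or SD7 replicate 1 the peptidoglycan recognition count was 1 or 2. Drosocin (Dro), an antibacterial peptide, stood at 20.7, 12.2 and 5.37 CPM in CD7 and at 2.38 and 2.92 CPM in SD7 (log2 fold change -2.27, SE 0.58, 95% interval -3.56 to -0.98, DESeq2 adjusted p = 0.0134). The CD7 libraries alone spanned a wide range for this gene. PGRP-SC2, an amidase that degrades bacterial cell wall, stood at 15.1, 8.79 and 4.02 CPM against 3.66 and 1.64 CPM (-1.81, SE 0.56, 95% interval -3.06 to -0.56). The odorant-binding protein gene Obp56a stood at 34.1, 17.0 and 19.9 CPM in CD7 and at 6.41 and 5.96 CPM in SD7 (-1.94, SE 0.50, 95% interval -3.04 to -0.83, DESeq2 adjusted p = 0.0200), while its class of 37 tested genes had a median of 0.06 with 3 lower and 1 higher.

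The genes that define the sweet neurons did not separate by diet. Of 9 sweet receptor genes 5 passed the filter on low counts, 0 were at p under 0.05 and 1 did not overlap. Gr64b, Gr64c, Gr64d and Gr64e did not pass, and Gr43a, a fructose receptor, passed at levels of 0.138 CPM or less in 2 of the CD7 libraries (log2 fold change 1.72, 95% interval -0.39 to 3.83). Gr5a itself stood at 3.48, 2.06 and 2.78 CPM in CD7 and at 2.89 and 2.47 CPM in SD7 (log2 fold change -0.05, SE 0.31, 95% interval -0.73 to 0.64). Gr64f, the common co-receptor for sugars, stood at 5.39, 3.897 and 4.51 CPM in CD7 and at 5.00 and 6.17 CPM in SD7 (0.28, 95% interval -0.52 to 1.09), and Gr64a at 3.38, 1.75 and 1.54 CPM against 1.86 and 3.47 CPM (0.26, 95% interval -0.90 to 1.42). Gr61a was the receptor without overlap, at 1.21, 1.26 and 1.49 CPM against 2.13 and 1.55 CPM (0.48, 95% interval -0.26 to 1.22). The intervals of Gr5a exclude a 2-fold change, but those of Gr64f and Gr64a do not exclude a 2-fold rise. Of the taste ionotropic receptor and ppk genes, 11 of 12 passed the filter and none was at p under 0.05. Ir76b, a co-receptor for salt and amino acids, was the abundant one (81.7, 67.3 and 70.8 CPM against 83.1 and 84.4 CPM, log2 fold change 0.19, 95% interval -0.17 to 0.56). Of 14 bitter receptor genes, which mark other taste neurons, 8 passed and none was at p under 0.05. Gr66a lay at 0.633 to 1.26 CPM in CD7 and at 1.53 and 1.28 CPM in SD7.

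The 4 transcription factors that the study links to sweet sensation and that were tested here (cad, Ptx1, nub and GATAe) had log2 fold changes of -0.62, -0.52, -0.33 and -0.25, none at p under 0.05. The values were set by SD7 replicate 2. For cad they were 43.4, 35.8 and 59.6 CPM in CD7, 41.5 CPM in SD7 replicate 1 and 18.6 CPM in SD7 replicate 2 (SE 0.46, 95% interval -1.65 to 0.41), and for GATAe 30.0, 28.2 and 31.2 CPM, 34.5 CPM and 15.6 CPM (SE 0.50, 95% interval -1.38 to 0.87). Ptx1 stood at 39.8, 30.0 and 37.9 CPM, 33.9 CPM and 16.2 CPM (SE 0.31, 95% interval -1.22 to 0.18), and nub at 34.1, 28.6 and 28.4 CPM, 29.7 CPM and 18.7 CPM. SD7 replicate 1 overlapped with CD7 or lay above it for these genes, and without SD7 replicate 2 GATAe was at 0.21. The median log2 ratio of the second SD7 library to the first was -1.09 over the 4, and in the input all 4 were lowest in SD7 replicate 1, as were the midgut genes (cad 15.8, 15.4 and 18.9 CPM against 5.18 and 12.2 CPM). All 4 factors are also known to be expressed in fly midgut, and the part of gut RNA in these values was not tested.

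Polycomb Repressive Complex 2 (PRC2), which methylates histone H3 at lysine 27 and represses genes, is the regulator the study is about. Its 8 tested genes had a median of 0.03, a range from -0.17 to 0.51, and none at p under 0.05. The intervals of 5 excluded a change of 1.5-fold. The methyltransferase gene E(z) stood at 29.1, 29.9 and 27.5 CPM in CD7 and at 26.3 and 31.8 CPM in SD7 (log2 fold change 0.01, SE 0.13, 95% interval -0.27 to 0.29). Jarid2, a cofactor, was the 1 member without overlap, on the lower side (263, 300.1 and 277 CPM against 262 and 257 CPM; -0.11, SE 0.10, 95% interval -0.32 to 0.10). esc was the most variable, at 6.37, 14.1 and 8.80 CPM against 13.1 and 14.8 CPM (0.51, SE 0.40, 95% interval -0.39 to 1.41).

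**Figure D4:**
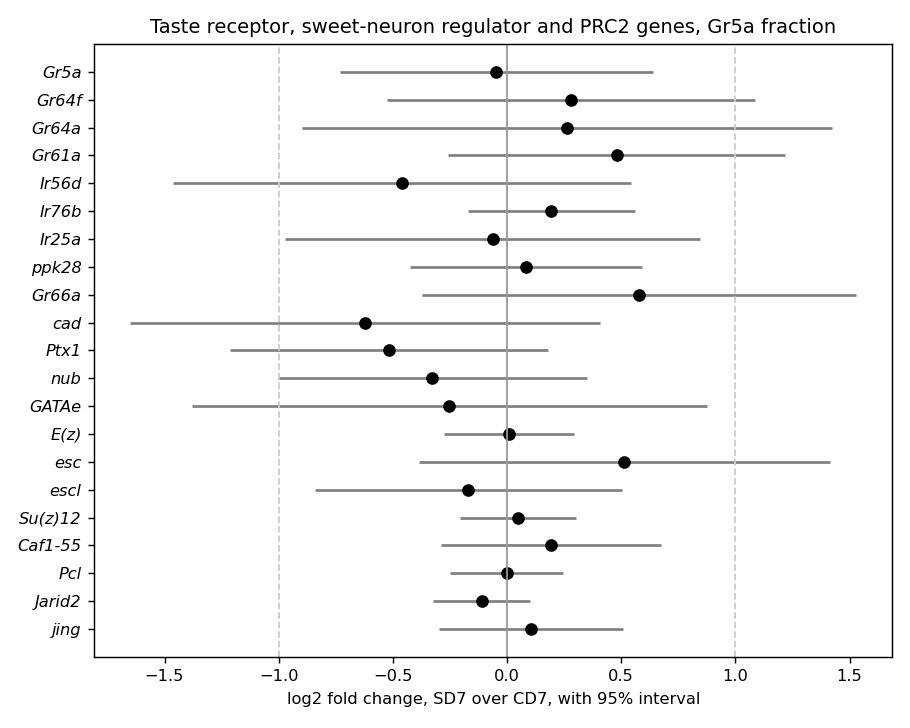
Log2 fold change of SD7 over CD7 with 95% interval for 21 of the tested genes of the sweet, bitter and ionotropic taste receptor, sweet neuron regulator and PRC2 lists, 1 row per gene, with dashed lines at a 2-fold change. All 21 intervals span 0, and 11 of them stay within 2-fold. The 21 are a selection, so these counts do not cover the full lists. Gr43a and all bitter receptor genes but Gr66a are not plotted.

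Genes of synaptic vesicles and the active zone, which run transmitter release in all neurons, were close to level. None of 27 was at p under 0.05, the median was 0.03, and the intervals of 25 excluded a change of 1.5-fold. Syt1, the calcium sensor of release, stood at 930, 1298 and 929 CPM in CD7 and at 1075 and 1235 CPM in SD7 (log2 fold change 0.13, SE 0.18, 95% interval -0.26 to 0.53). None of 23 voltage-gated channel genes was at p under 0.05 either, with a median of 0.16. That count depended on CD7 replicate 2: without it 10 of 23 were higher at p under 0.05 and the median was 0.31, while without SD7 replicate 2 the median was 0.07. The potassium channel gene Sh stood at 486, 877 and 540 CPM in CD7 and at 704 and 960.0 CPM in SD7 (0.39, SE 0.30, 95% interval -0.28 to 1.06). Of 26 tested genes of dopamine, octopamine and serotonin 1 was lower and 1 higher at p under 0.05, and 2 (7.69%) did not overlap on each side, near the background. The counts at p under 0.05 were 3 and 6 without CD7 replicate 2. The lower one was ple, tyrosine hydroxylase, which makes the dopamine precursor and also serves cuticle tanning. It stood at 267, 203 and 322 CPM in CD7 and at 135 and 163 CPM in SD7, 1.77-fold lower (log2 fold change -0.83, SE 0.19, 95% interval -1.25 to -0.40, DESeq2 adjusted p = 0.0480). Glial genes lay mostly on the lower side, with 19 of 20 tested below 0, a median of -0.15 and 8 (40.0%, against 7.87%) without overlap. Gs2, the glial glutamine synthetase, stood at 1563, 1407 and 1490.0 CPM against 1216 and 1320.0 CPM (-0.23, SE 0.13, 95% interval -0.51 to 0.05).

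The input holds the same diets in whole heads, from the lysates that gave the Gr5a fraction, so the 2 comparisons are not independent and are given side by side. In the input edgeR called 10 of 14185 genes (0.0705%) and 2662 (18.8%) were at p under 0.05. The difference between the fractions was tested as a diet by fraction interaction, which called 0 of 14185 genes (0.0%), with 1391 (9.81%) at an unadjusted p under 0.05. For Amy-p the log2 fold change was -2.60 in the Gr5a fraction and -2.27 (SE 0.50) in the input (interaction adjusted p = 0.831). For Jon99Ciii it was -2.18 and -2.05 (interaction adjusted p = 0.935), for Lsp2 -6.45 and -7.17 (input adjusted p = 0.0664, interaction adjusted p = 0.834), for CNMa 2.96 and 2.76 (SE 0.22; input adjusted p = 0.00252, interaction adjusted p = 0.86), for Nepl4 2.23 and 2.40 (SE 0.25; input adjusted p = 0.0164, interaction adjusted p = 0.842), and for phu 1.66 and 1.57 (interaction adjusted p = 0.978). These genes had a value of the same order in whole heads, but genes called in the input were among those chosen for naming. Over all 13655 genes in both fits, 56.6% had the same sign in the 2 fractions, with a Pearson correlation of 0.255. Of 765 genes at p under 0.05 in the Gr5a fraction, 84.8% had the same sign in the input.

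Some genes differed more in 1 fraction than in the other at an unadjusted interaction p under 0.05, none after adjustment. Men-b was at 295, 310.1 and 288 CPM in CD7 and 272 and 238 CPM in SD7 of the input, a log2 fold change of -0.18 (SE 0.13) against -0.76 in the Gr5a fraction (interaction adjusted p = 0.487). CG1208 was at -0.46 (SE 0.18) in the input against -1.11 (interaction adjusted p = 0.487). daw was higher by 1.02 (SE 0.12, input adjusted p = 0.0214) in the input, with 82.5, 83.1 and 73.3 CPM against 158 and 155 CPM, and by 0.65 in the Gr5a fraction (interaction adjusted p = 0.487). UGP was at -0.78 (SE 0.10, input adjusted p = 0.0304) against -0.41 (interaction adjusted p = 0.487). Class medians are given side by side as well. Synaptic genes had a median of 0.31 in the input with 17 of 27 higher at p under 0.05, against 0.03 and 0 in the Gr5a fraction, with 4 of 27 lower in the Gr5a fraction at an interaction p under 0.05 (3.57% of all genes). Voltage-gated channel genes had 0.39 in the input with 13 of 23 higher, against 0.16 and 0, but 0 of 23 were at an interaction p under 0.05 in either direction.

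**Figure D5:**
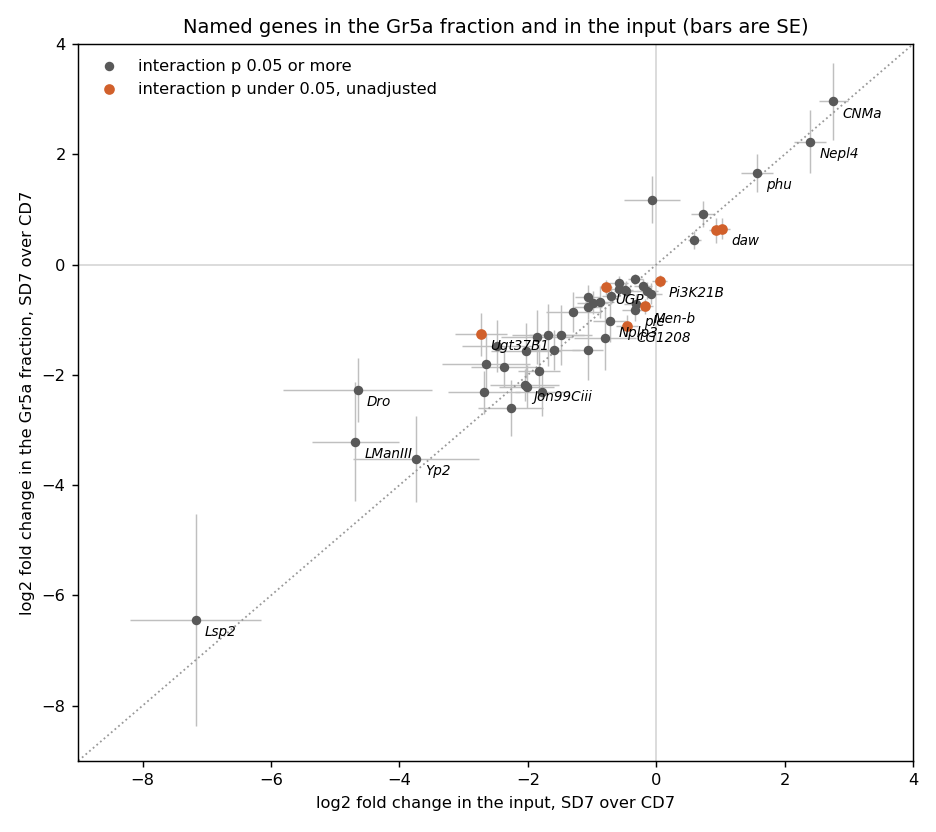
Log2 fold change of SD7 over CD7 in the Gr5a fraction (y axis) and in the input (x axis) for 50 named genes at unadjusted p under 0.05 in the Gr5a fraction, with bars of 1 SE. Orange marks 7 genes with an unadjusted interaction p under 0.05, Men-b and CG1208 among them, and the dotted line marks equal values in both.

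The sugar diet was also sampled after 3 days (SD3, 2 libraries of the Gr5a fraction). That comparison uses the same 3 CD7 libraries as control, so the values are set side by side only. The log2 fold change after 3 and 7 days was -2.25 and -2.60 for Amy-p, -2.55 and -2.18 for Jon99Ciii, -8.53 and -6.45 for Lsp2, -2.95 and -1.85 for Yp3, and -0.98 and -0.76 for Men-b. On the higher side it was 1.76 and 2.96 for CNMa, 1.64 and 2.23 for Nepl4, and 0.27 and 0.65 for daw. Idh stood at -0.02 and -0.45, and Odc1 at 0.13 and 0.92.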

How the data were processed

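RNA was sequenced from the Gr5a fraction and the input of fly heads (ribosomal RNA depleted, Ovation SoLo libraries). The authors mapped reads to BDGP6 (dm6) using STAR, and the deposited values are raw gene counts. The methods name HTSeq, but the layout is that of STAR, and per the submitters' processing notes DESeq2 1.18.0 and SAMtools 1.4 were used. Same-strand counts were used (96.3% to 97.3% of the strand-specific gene counts in the day 7 libraries that have both strand columns). Gr5a CD7 replicate 1 has a single count column, taken as same-strand: at 164 and 45 genes where the columns of replicates 2 and 3 are far apart, it differed from them by a median of 0.851 and 1.03 (absolute log2) on the same strand and by 4.9 and 4.67 unstranded. Reads that map to several places were not counted. Rows of unmapped or unassigned reads were left out of library sizes; where listed for the 5 libraries, unmapped reads equalled 19.0% to 23.9% of the gene counts.

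Groups followed the labels, which call the replicates biological. edgeR 4.0.16 in R 4.3.3 (quasi-likelihood F test, TMM, filterByExpr, prior count 0.125, Benjamini-Hochberg adjusted p under 0.1) was fitted to the 11 Gr5a libraries for diet, and to the 10 day 7 libraries for the input and the interaction. SE is the absolute log2 fold change over the square root of F. CPM of the input was scaled among input libraries alone. DESeq2 1.42.0 was an alternative and was run on the genes that passed filterByExpr. Replicates differed by more than sampling noise (chi-square per degree of freedom 55.05 to 274.7).

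Named genes were members of the taste receptor, regulator and PRC2 lists, the 12 genes of smallest p in each direction (mean level of 5 CPM or more, groups not overlapping), up to 4 most abundant and 2 of smallest p in each list, genes called in the input, and the first 10 by DESeq2 in each direction; the text gives 76 or fewer of 329. The members, gene lists and tests were chosen with earlier results of these data known, so no list was tested as a set. Of 17489 gene IDs 17215 had a symbol. Positions are those of the Ensembl annotation of BDGP6. The alternatives were unstranded counts (without CD7 replicate 1), DESeq2 size factors, the DESeq2 test, no filter, at least 10 counts in each of the 5 libraries, the 5 libraries alone, the 10 libraries of day 7, removal of genes over 1% of a library, a prior count of 2, the replicate number as a block and leaving out each library. For the interaction, a block shared by same-numbered Gr5a and input libraries of 1 diet was added after seeing the data. It is called a block of 1 lysate below, but the labels do not say that equal numbers mark 1 lysate. 1 regulator gene is not reported here.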

Additional observations from a re-analysis of the deposited data

How the results depend on the processing

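The number of genes called was 0 in the fit reported, with DESeq2 size factors, with unstranded counts, with at least 10 counts, in the 5 libraries alone, without genes over 1% and with a prior count of 2. It was 57 with the DESeq2 Wald test (50 lower, 7 higher), 1 with no filter, 2 with the 10 libraries of day 7 and 0 to 9 when 1 library was left out (9 without SD7 replicate 1). The number at p under 0.05 was 772. It was 460 with unstranded counts, which also lose CD7 replicate 1, and 423 to 1181 when 1 library was left out (423 without CD7 replicate 1, 1181 without CD7 replicate 2). The share of these that was lower was 56.0%, 67.2% in the 5 libraries alone, 46.2% without CD7 replicate 2 and 33.0% without SD7 replicate 2, so the lean to the lower side over all genes rests on single libraries. The interaction called 0 genes in every setting run. Its number at p under 0.05 was 1391, 978 with a block of 1 lysate, and 346 to 3062 when 1 of the 10 libraries was left out (346 and 3062 without input SD7 replicates 1 and 2, 434 and 2463 without Gr5a SD7 replicates 1 and 2, 762 and 734 without input CD7 replicates 2 and 3).

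Replicate numbers did not pair the libraries: same-numbered libraries of the diets correlated at -0.0847 and -0.249 in their deviations. With the replicate block in the 5 libraries alone, 119 genes were called (4 of them higher) and 79.7% of those at p under 0.05 were lower. With the block within fraction, the interaction had 420 genes at p under 0.05.

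Of 76 named genes, 72 kept the sign of their log2 fold change in all 15 settings, and 23 of the 50 at p under 0.05 stayed there without any 1 of the 5 libraries, Amy-p, Jon99Ciii, Lsp2, Men-b, CG1208, CNMa, Nepl4, daw and ple among them. Many of the 76 were named for a small p or for groups that did not overlap in these same libraries. That choice itself favours a kept sign and a kept p, so these counts do not describe genes at large. Signs turned at 4 genes, none of them at p under 0.05. Gr5a was at 0.29 with unstranded counts, and between -0.22 and 0.15 without 1 library. E(z) was at -0.015 with no filter, -0.0051 in the 5 libraries alone, -0.034 with the libraries of day 7, -0.049 with the replicate block and -0.14 to 0.16 without 1 library. Gr64a lay between -0.26 and 0.69 and GATAe between -0.91 and 0.21 without 1 library, with the turn in sign at both without SD7 replicate 2. Of 780 medians of lists under the alternatives, 747 moved by less than the spread between replicates. At CPM under 3, as for Gr5a, depth limits what can be seen.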

Other observations

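Small structured RNAs lay on the higher side in SD7. Of 190 tested small nucleolar RNA genes, which guide modification of ribosomal RNA, 79 were higher at p under 0.05 (against 2.47% of all genes) and none lower. Both SD7 libraries lay above CD7 at 67 (35.3%, against 10.1% of all genes), and the median log2 fold change was 0.80. For 13 scaRNA genes, their relatives that guide modification of spliceosomal RNAs, the median was 0.97 with 7 higher. For 24 snRNA genes it was 0.83 with 9 higher, both against the same 2.47%. In the input the median of the small nucleolar RNAs was 0.31 with 4 higher at p under 0.05. Over the 13655 genes in both fits, 1404 were higher there, so the 4 lay under the share over all genes. The 2 SD7 libraries differed from each other by a median of 0.95 (log2, replicate 2 over replicate 1) at these genes, and replicate 2 was the higher. These RNAs are not translated, and a small RNA inside an intron can share reads with its host gene.

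Of 85 tested genes for cytosolic ribosomal proteins, the class that includes the tagged one, 4 were higher at p under 0.05 (against 2.47% of all genes) and none lower. At 81 the log2 fold change was above 0, and 4.71% lay below 0, against 42.9% of all genes. On the higher side 12 (14.1%, against 10.1%) did not overlap, a share near the background. The median was 0.10, and the intervals of 75 excluded a change of 1.5-fold. Without SD7 replicate 1 the median was -0.01 with 0 at p under 0.05, without CD7 replicate 1 the count was 0, without CD7 replicate 3 it was 2, and without SD7 replicate 2 it was 10.

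Testis and accessory gland genes, which mark tissue outside the head, moved apart in the 2 fractions. The medians were 0.39 and 0.21 in the Gr5a fraction and -0.79 and -1.20 in the input. At an interaction p under 0.05, 21 of 50 and 31 of 59 lay higher in the Gr5a fraction (6.23% of all genes). Summed testis markers stood at 67.6, 110 and 106 CPM in CD7 and at 195 and 87.1 CPM in SD7 of the Gr5a fraction, so SD7 replicate 1 was the highest library there, and without it the medians were -0.24 and -0.29. In the input it was the lowest, at 106 CPM, against 230 CPM in SD7 replicate 2 and 244 to 354 CPM in CD7.

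Genes of the unfolded protein response lay on the lower side, with 16 of 18 below 0 (88.9%, against 42.9% of all genes). The median was -0.20 with 2 at p under 0.05, and 2 (11.1%, against 7.87%) did not overlap. The median was -0.05 with 0 at p under 0.05 without SD7 replicate 2, and without CD7 replicate 1 it was -0.08 with 1. Without CD7 replicate 2 and without SD7 replicate 1 the counts were 4 and 5. The chaperone gene Gp93 stood at 330, 248 and 236 CPM in CD7 and at 233 and 156 CPM in SD7 (log2 fold change -0.48, 95% interval -0.90 to -0.06), and Cnx99A, calnexin, at 260, 234 and 208 CPM against 200.2 and 158 CPM (log2 fold change -0.39, 95% interval -0.68 to -0.09).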
